A study of Mus musculus with 9 samples.

Results

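The cytochrome P450 genes of families 1 to 3 were followed here in mouse liver after bile duct ligation, with and without ligustilide. They were taken from the deposited table by their symbols: every gene named Cyp1, Cyp2 or Cyp3 with a subfamily letter and a gene number, other than Cyp2c70. This gave 48 of the 21470 genes in the table, in 15 subfamilies, of which Cyp2c (13 genes), Cyp2d (8 genes) and Cyp3a (7 genes) were the largest. The series held 9 RNA-seq libraries of total liver RNA, 3 from sham-operated mice (sham), 3 from mice with bile duct ligation (BDL), and 3 from ligated mice given ligustilide (LIG, here BDL+LIG). Ligation of the bile duct blocks bile flow and leads to cholestatic injury and fibrosis. Ligustilide is a phthalide of Angelica and Ligusticum roots, and the series compared gene expression in ligated liver with and without it. Its dose is uncertain, since the series' design text names 10 mg/kg and the sample titles the number 20. Strain, sex, age, time after surgery and any vehicle were not found in the labels, and no group received LIG without ligation.

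P450 enzymes are haem proteins of the endoplasmic reticulum that insert an oxygen atom into their substrates with electrons passed on by P450 oxidoreductase. Families 1 to 3 hold the enzymes that oxidize drugs, pollutants, steroids and polyunsaturated fatty acids, and the hepatocyte is their main site. Many are induced through nuclear receptors such as CAR (Nr1i3) and PXR (Nr1i2) or through the aryl hydrocarbon receptor (Ahr), many lie in one zone of the lobule, and in mice several differ between the sexes.

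Values are FPKM, fragments per unit of transcript length and library depth, so that levels can be compared between genes. The libraries held 34815965 to 40780517 recovered fragments, a ratio of 1.17 between the deepest and the shallowest. Differences are given as log2(FPKM + 1) with the standard error (SE) of a limma fit over all 9 libraries, and adjusted p is the Benjamini-Hochberg value over the 10142 genes that reached 1 FPKM in 3 or more libraries, with a threshold of 0.05. Such log2 differences understate the change of genes near or below 1 FPKM. Whether libraries stem from separate mice is not stated in the labels, so p reflects the spread between libraries alone, possibly a technical one. An exact permutation test of 3 libraries against 3 cannot go below a two-sided p of 0.1. Liver identity held in every library: each of 20 hepatocyte genes stood at 12.2 FPKM or more in all 9, and albumin (Alb) lay between 16180 and 33910 FPKM.

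The makeup of the tissue moved with the groups. Of 8 tested cholangiocyte and ductular markers 7 rose in BDL over sham, where 22.9% of all tested genes rose, and the summed level of all 10 markers was 24.65 to 44.5 FPKM in sham, 417 to 615 after BDL and 232 to 471 with BDL+LIG, with Cldn4 and Cftr at 0 in sham 3. All 10 macrophage markers rose, from sums of 154 to 365 FPKM in sham to 718 to 946 after BDL, and stood at 807 to 1624 with BDL+LIG, where Adgre1 passed against BDL. Of 10 stellate cell and myofibroblast markers 6 rose (sums of 17.8 to 47.2, 78.2 to 99.3 and 115 to 222 FPKM in sham, BDL and BDL+LIG). Of 8 tested endothelial markers 1 rose in BDL over sham and 7 with BDL+LIG over BDL, where 9.98% of all tested genes rose (sums of 27.7 to 32.3, 33.6 to 37.1 and 60.3 to 89.0 FPKM). The summed level of 20 hepatocyte genes other than P450 was 74520 to 82240 FPKM in sham, 49320 to 58770 after BDL and 56610 to 61190 with BDL+LIG. Of these 20 genes Tat rose and Ttr and Apoa2 fell in BDL over sham, where 6.76% of all tested genes fell. Krt7, Cldn4, Cldn7, Trem2, Lrat, Pdgfrb and Lyve1 of these lists passed the filter on low values through ligated libraries alone, which fixes part of the counts. In bulk liver, fewer hepatocytes and less of a transcript per hepatocyte cannot be told apart, and the part these shifts have in the P450 values was not tested.

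P450 genes of families 1 to 3 made up 1.62 to 1.88% of all FPKM in sham, 1.28 to 1.41% in BDL and 1.33 to 1.41% with BDL+LIG. Their summed level was 9453, 11180 and 10240 FPKM in sham, 7871, 7441 and 7012 FPKM after BDL and 6912, 7036 and 6699 FPKM in BDL+LIG. The BDL mean was 72.3% of the sham mean and the BDL+LIG mean 66.9% of it, with no overlap of either ligated group with sham (exact two-sided permutation p = 0.1 for each). BDL+LIG stood at 92.5% of BDL, with overlapping libraries (exact permutation p = 0.2).

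**Figure D1:**
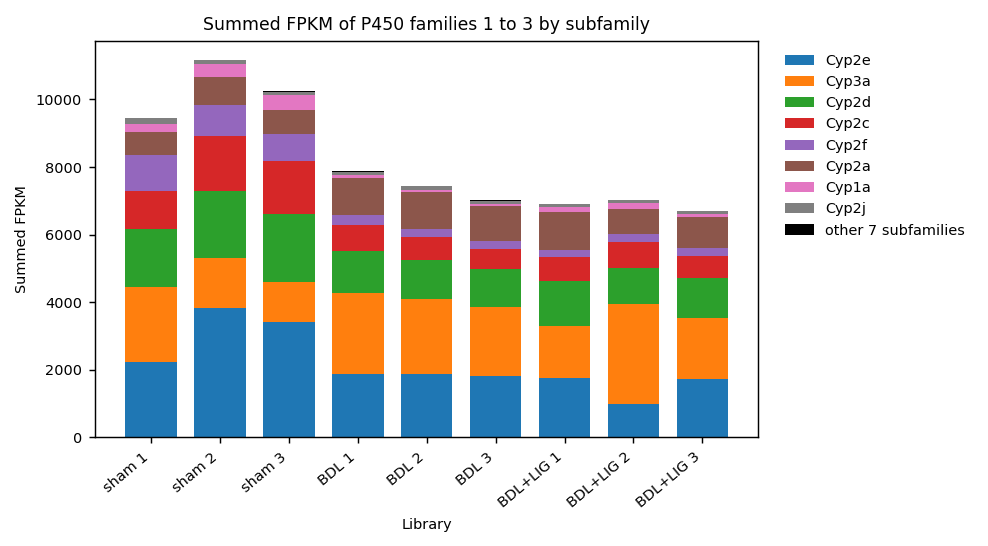
Stacked bars give the summed FPKM of the P450 genes of families 1 to 3 in each of the 9 libraries, coloured by subfamily. The sham bars reach 9453 to 11180 FPKM and the ligated bars 6699 to 7871 FPKM, and the Cyp2f band is narrower and the Cyp2a band wider in BDL than in sham.

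The subfamilies did not share 1 direction. As a percentage of the sham mean, the BDL sum was 21.2% for Cyp1a, 26.1% for Cyp2f, 48.9% for Cyp2c, 58.7% for Cyp2e and 60.9% for Cyp2d, against 145% for Cyp2a and 136% for Cyp3a. In BDL+LIG the sums stood at 36.9% for Cyp1a, 23.9% for Cyp2f, 49.6% for Cyp2c, 47.3% for Cyp2e and 62.4% for Cyp2d. There Cyp2a stood at 126% and Cyp3a at 128.5% of sham, and both directions turned under median-of-ratios scaling (log2 ratio −0.24 and −0.18). Among these 8 subfamilies, sham and BDL did not overlap for Cyp1a, Cyp2a, Cyp2c, Cyp2d, Cyp2e and Cyp2f (exact permutation p = 0.1 for each, 0.205 after adjustment over the subfamilies). For Cyp3a (exact permutation p = 0.2) and for Cyp2j at 78.3% (exact permutation p = 0.4) they overlapped. Cyp2e1 was the most abundant of these genes in every sham library, and Cyp3a11 took its place in every BDL library and in BDL+LIG 2.

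**Figure D2:**
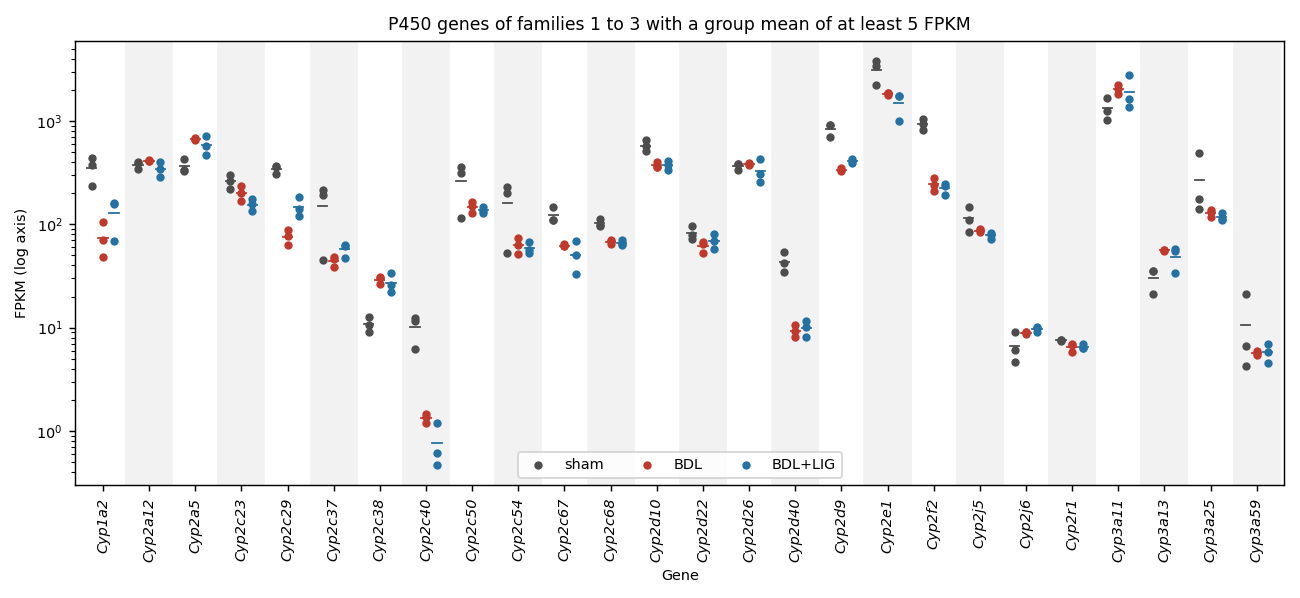
Each point is 1 library's FPKM, on a log axis, for the 26 P450 genes with a group mean of at least 5 FPKM, and each short line is the group mean. Sham points of Cyp2f2, Cyp2d40, Cyp2c29 and Cyp2c40 lie above every ligated point, those of Cyp2c38 and Cyp2a5 below, and sham 1 stands apart from sham 2 and 3 for Cyp2c37 and Cyp3a25.

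Of the 48 genes 34 passed the filter on low values and 14 did not. Cyp2c69 passed through its sham libraries alone and Cyp2c39 through its ligated libraries alone, so these had to differ. Cyp2b10 passed through BDL 1 and the BDL+LIG libraries and through no sham library, so part of its rise in BDL+LIG was fixed by the filter. The counts that follow describe the tested genes only. In BDL against sham 29.7% of all tested genes were called (22.9% up and 6.76% down). Among the P450 genes 4 rose and 12 fell, 18 passed in neither direction, and their median log2 difference was −0.60 against 0.16 over all tested genes. The groups did not overlap for 22 of the 34, where 45.0% of all tested genes did not overlap. Falls were the more frequent call among the P450 genes and rises among all genes. Median-of-ratios scaling, which moved the median of all genes from 0.16 to −0.06, gave 1462 genes up and 1466 down against 2322 and 686 in the deposited scale, and 2 P450 genes up and 17 down. Quantile normalization gave 1641 up and 1309 down over all genes and 4 and 14 among the P450 genes. Without sham 1, which stood apart from the other sham libraries for several genes below, 6 rose and 15 fell.

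**Figure D3:**
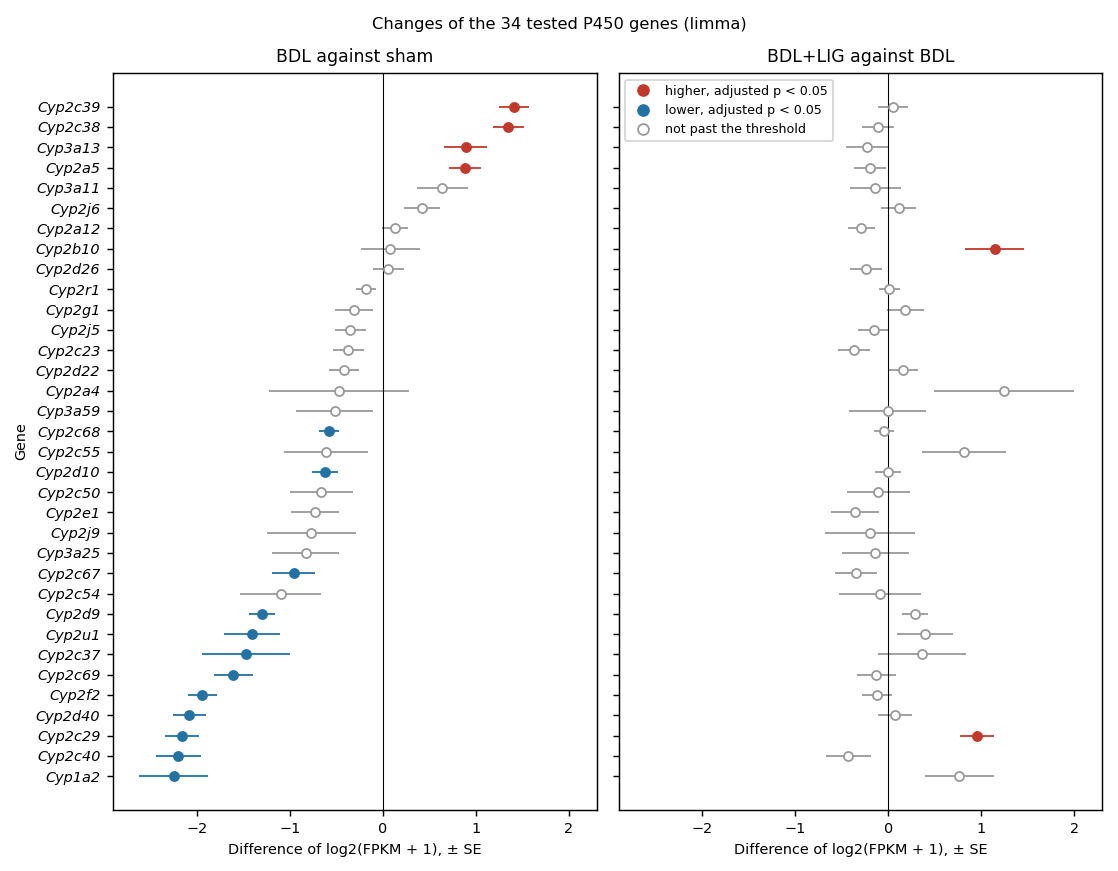
Points give the limma difference of log2(FPKM + 1) with its SE for the 34 tested P450 genes, for BDL against sham on the left and BDL+LIG against BDL on the right, filled where adjusted p was under 0.05. On the left 4 genes are filled above 0 and 12 below, and on the right Cyp2c29 and Cyp2b10 are filled, neither of which is called under median-of-ratios scaling.

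Family 1 oxidizes flat aromatic compounds and is the classical target of the aryl hydrocarbon receptor. Cyp1a2, the hepatic enzyme that clears caffeine and activates arylamines, measured 236, 379 and 434.5 FPKM in sham, 105, 70.1 and 47.9 after BDL and 159, 157 and 69.4 with BDL+LIG. No BDL library reached the lowest sham library. The fall was 4.71-fold between the means (349.8 ± 102.5 to 74.2 ± 28.6 FPKM, SD, n = 3), a log2 difference of −2.25 ± 0.37 (SE, adjusted p = 0.00142). BDL+LIG overlapped BDL and did not pass against it (0.76 ± 0.37, adjusted p = 0.184), while it was lower than sham (−1.48 ± 0.37, adjusted p = 0.00688). Cyp1a1, the inducible partner of Cyp1a2, stayed below the filter: 0.158, 0.284 and 0.175 FPKM in sham, 0.0176, 0.0794 and 0.113 after BDL, and 0.188, 0.337 and 0.235 with BDL+LIG. These are 16, 28 and 17, then 2, 9 and 11, then 21, 37 and 26 recovered fragments, and every BDL library was below every library of the other groups. Cyp1b1, mostly an enzyme of tissues outside the liver, was 0.16, 0.0602 and 0.00555 FPKM in sham, 0.176, 0.167 and 0.161 after BDL and 0.194, 0.108 and 0.249 with BDL+LIG. Neither was tested.

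Cyp2a enzymes hydroxylate coumarin, nicotine and steroids. Cyp2a5, the coumarin 7-hydroxylase, known to be induced in injured liver and to oxidize bilirubin, stood at 330, 431 and 334 FPKM in sham, 687, 664 and 651 after BDL, and 722, 474 and 575 with BDL+LIG. All ligated libraries lay above all sham libraries. It rose by 0.88 ± 0.17 (SE, adjusted p = 0.00378) in BDL and by 0.68 ± 0.17 (adjusted p = 0.00758) in BDL+LIG over sham. Neither call held under median-of-ratios scaling (0.59 and 0.12). BDL+LIG and BDL did not differ past the threshold (−0.20 ± 0.17, adjusted p = 0.451). Cyp2a12, a steroid hydroxylase, averaged 378 ± 29.5, 414 ± 8.12 and 343 ± 59.95 FPKM (SD, n = 3) in sham, BDL and BDL+LIG and passed no test in the deposited scale. It was called lower in BDL+LIG than in sham under median-of-ratios scaling (−0.71). Its near copy Cyp2a22, untested, measured 0.157 to 0.200 FPKM in sham, 0.944 to 1.08 after BDL and 0.650 to 0.953 with BDL+LIG. Cyp2a4, a steroid 15α-hydroxylase that is higher in female liver, was scattered within groups: 7.48, 0.346 and 0.267 FPKM in sham, 1.04, 0.903 and 0.402 after BDL, and 0.728, 2.90 and 9.75 with BDL+LIG. Its BDL against sham difference was −0.47 ± 0.75 (adjusted p = 0.679), and it turned to 0.43 without sham 1. The log2 ratio of Cyp2a4 to Cyp2a5 within a library was −5.46, −10.28 and −10.29 in sham, −9.36, −9.52 and −10.66 after BDL and −9.95, −7.35 and −5.88 with BDL+LIG. The differences were −1.17 for BDL against sham, 2.12 for BDL+LIG against BDL and 0.95 for BDL+LIG against sham, in a design whose exact permutation p cannot go below 0.1 (p = 0.8, 0.3 and 0.8). With 1 library left out the first ran from −1.98 to 0.44. The division of fragments between Cyp2a4 and Cyp2a5 is uncertain, since their coding sequences are 98.5% identical.

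Cyp2b10, the classical target of CAR, was low in all groups: 0.689, 0.617 and 0.168 FPKM in sham, 1.25, 0.537 and 0.0764 after BDL, and 1.17, 3.11 and 3.51 with BDL+LIG. These values rest on 5 to 96 fragments in sham and BDL and on 88, 230 and 261 with BDL+LIG. BDL did not differ from sham (0.08 ± 0.32, adjusted p = 0.882), while BDL+LIG was higher than sham in all 3 libraries (1.22 ± 0.32, adjusted p = 0.00879). No sham library reached the filter of 1 FPKM, so the filter fixed part of the difference between BDL+LIG and sham. Cyp2b9, a female-biased gene, was at most 0.136 FPKM in sham, 0.0942 after BDL and 0.312 with BDL+LIG and was not tested. Cyp2b13 was not analysed here.

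The 13 Cyp2c genes, epoxygenases and hydroxylases of arachidonic acid and other fatty acids, held changes in both directions. Of 12 tested genes 6 fell and 2 rose in BDL against sham, where 6.76% of all tested genes fell and 22.9% rose. Promoters of related genes are printed to show how alike genes with opposite calls can be. Cyp2c29, an arachidonic acid epoxygenase and CAR target, fell and Cyp2c38, an epoxygenase, rose. Both runs are the 250 bases before the RefSeq start site in GRCm38.p6, chr19:39286835-39287084 on the plus strand for Cyp2c29 and chr19:39463076-39463325 on the minus strand for Cyp2c38, 5′ to 3′. They were identical at 187 of 250 aligned columns (74.8%). Capitals mark bases within the aligned stretch that differ from the other gene or have no partner there.
Cyp2c29: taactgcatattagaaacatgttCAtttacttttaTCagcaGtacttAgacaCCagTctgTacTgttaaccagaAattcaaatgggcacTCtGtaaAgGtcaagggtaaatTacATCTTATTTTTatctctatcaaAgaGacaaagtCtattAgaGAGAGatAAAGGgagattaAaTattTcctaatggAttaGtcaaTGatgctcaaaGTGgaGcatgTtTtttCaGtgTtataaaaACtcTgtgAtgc
Cyp2c38: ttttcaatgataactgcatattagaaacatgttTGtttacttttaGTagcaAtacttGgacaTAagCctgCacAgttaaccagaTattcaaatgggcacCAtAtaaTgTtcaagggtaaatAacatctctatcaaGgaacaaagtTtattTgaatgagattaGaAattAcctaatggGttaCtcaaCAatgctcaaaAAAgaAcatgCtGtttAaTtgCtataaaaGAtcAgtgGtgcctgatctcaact

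Cyp2c29 measured 363, 356 and 304 FPKM in sham, 87.9, 76.5 and 63.0 after BDL and 141, 185 and 120.0 with BDL+LIG. The 3 groups were fully apart, with BDL lowest and BDL+LIG between. It fell 4.50-fold in BDL (−2.16 ± 0.18 on the log2 scale, adjusted p = 1.67e-05). Cyp2c38 stood at 9.16, 10.7 and 12.55 FPKM in sham, 30.9, 29.9 and 26.3 after BDL, and 33.7, 22.0 and 25.6 with BDL+LIG. It rose 2.69-fold in BDL (1.35 ± 0.17, adjusted p = 0.000228). Cyp2c39, which hydroxylates retinoic acid and is 94.2% identical to Cyp2c38 in its coding sequence, rose from 0.294, 0.284 and 0.251 FPKM in sham to 2.38, 2.21 and 2.62 in BDL (1.41 ± 0.16, adjusted p = 0.000141) and was 3.03, 1.71 and 3.01 with BDL+LIG. No ligated library of either gene overlapped sham. Neither they nor Cyp2c29 shared a stretch of 100 coding bases with another P450 gene of families 1 to 3, the only genes compared.

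Cyp2c40, Cyp2c67, Cyp2c68 and Cyp2c69 are a group of near copies, with coding sequences 97.7 to 98.1% identical to their nearest relative. Shared stretches of 100 bases covered 50.2% of Cyp2c40, 38.3% of Cyp2c69, 27.2% of Cyp2c67 and 23.1% of Cyp2c68, so how fragments were divided among them is uncertain. All 4 fell in BDL against sham. Cyp2c40, an arachidonic acid hydroxylase, fell from 12.5, 6.26 and 11.7 FPKM to 1.46, 1.35 and 1.20 (−2.20 ± 0.24, adjusted p = 8.91e-05) and was 0.4715, 1.18 and 0.616 with BDL+LIG. Cyp2c69 fell from 3.51, 2.60 and 4.97 FPKM to 0.443, 0.500 and 0.584 (−1.61 ± 0.21, adjusted p = 0.000332), with 0.0988, 0.774 and 0.356 with BDL+LIG. The more abundant Cyp2c67 and Cyp2c68 fell less: Cyp2c67 from 148.5, 111 and 110.1 FPKM to 64.25, 61.45 and 61.4 (−0.96 ± 0.23, adjusted p = 0.0107), and Cyp2c68 from 112, 97.7 and 96.4 FPKM to 70.8, 68.55 and 64.8 (−0.58 ± 0.11, adjusted p = 0.00286). In BDL+LIG they measured 32.7, 69.3 and 50.5 FPKM and 65.1, 69.9 and 62.6 FPKM. Sham and ligated libraries did not overlap for any of the 4.

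The promoters of these 4 near copies share the letters CAAAGTCC, a core of the sequence bound by the hepatocyte factor HNF4A. Stretches of 60 bases around it are printed to show the likeness, beside those of Cyp2a4, Cyp2a5 and Cyp3a11, which carry the same letters and were not called lower in BDL. They come from RefSeq in GRCm38.p6, read 5′ to 3′ on the gene's strand, with the motif in capitals: chr19:39812826-39812885 minus (Cyp2c40), chr19:39649134-39649193 minus (Cyp2c67), chr19:39741145-39741204 minus (Cyp2c68), chr19:39886811-39886870 minus (Cyp2c69), chr7:26307111-26307170 plus (Cyp2a4), chr7:26835257-26835316 plus (Cyp2a5) and chr5:145879930-145879989 minus (Cyp3a11). The motif and the genes shown were chosen after the values and promoters were seen.
Cyp2c40: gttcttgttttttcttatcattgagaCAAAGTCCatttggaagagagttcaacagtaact
Cyp2c67: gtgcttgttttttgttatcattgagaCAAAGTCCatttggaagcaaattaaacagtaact
Cyp2c68: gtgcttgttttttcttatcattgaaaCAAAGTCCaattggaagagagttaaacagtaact
Cyp2c69: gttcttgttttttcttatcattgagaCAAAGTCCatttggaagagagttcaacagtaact
Cyp2a4: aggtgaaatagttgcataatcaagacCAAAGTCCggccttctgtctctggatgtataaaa
Cyp2a5: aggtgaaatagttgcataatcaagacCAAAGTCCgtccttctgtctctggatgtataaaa
Cyp3a11: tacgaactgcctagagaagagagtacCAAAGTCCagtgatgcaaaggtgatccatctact

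A promoter was found for 41 of the 48 genes. On either strand of the 250 bases before the start, CAAAGTCC was present in 9 of the 41 (22.0%) and in 1.20% of 32851 promoters. TATAAA stood in 21 of 41 (51.2%) and in 12.4% of all promoters. TTCNNNGAA, the form bound by STAT5, stood in 0 of 41 and in 7.02% of all. The 41 were counted by gene and the 32851 by promoter entry, so the percentages compared have unlike units. Near copies share their promoters, so these counts are not independent, and a match is a description of letters and not of binding.

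Cyp2c37, Cyp2c50 and Cyp2c54 formed another group, in which sham 1 stood apart from sham 2 and 3. Their coding sequences are 95.2 to 96.1% identical to the nearest relative. The promoters of Cyp2c37 (chr19:39992174-39992423, plus strand) and Cyp2c50 (chr19:40089429-40089678, plus strand) are printed because both genes were lowest in sham 1 among the sham libraries. They were identical at 215 of 249 aligned columns (86.3%), and capitals again mark bases that differ or have no partner within the aligned stretch (RefSeq, GRCm38.p6, 5′ to 3′). Both promoter pairs were chosen after the values were seen.
Cyp2c37: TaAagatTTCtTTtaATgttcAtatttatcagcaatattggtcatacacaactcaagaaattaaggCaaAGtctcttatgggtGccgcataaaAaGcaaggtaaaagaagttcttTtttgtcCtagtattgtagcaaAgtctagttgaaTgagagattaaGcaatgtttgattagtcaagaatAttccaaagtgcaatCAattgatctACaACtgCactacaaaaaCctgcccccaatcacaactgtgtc
Cyp2c50: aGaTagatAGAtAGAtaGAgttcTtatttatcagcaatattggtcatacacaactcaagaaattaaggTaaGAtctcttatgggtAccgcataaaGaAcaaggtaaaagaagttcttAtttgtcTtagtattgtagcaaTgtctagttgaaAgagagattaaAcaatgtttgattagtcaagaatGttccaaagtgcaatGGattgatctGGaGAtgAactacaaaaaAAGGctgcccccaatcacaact

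Cyp2c37, a fatty acid hydroxylase, measured 44.9, 215 and 194 FPKM in sham, 48.0, 45.7 and 38.6 after BDL, and 62.1, 46.7 and 62.5 with BDL+LIG. Sham 1 lay at the level of the ligated livers. The fall in BDL passed the threshold (−1.47 ± 0.47, adjusted p = 0.0385), yet it lost the call when any 1 of the other 8 libraries was left out (−1.07 to −1.53), and without sham 1 it was −2.19. Cyp2c50 stood at 116, 356.5 and 311 FPKM in sham, 166, 151 and 129 after BDL and 136, 148 and 128 with BDL+LIG, and Cyp2c54 at 52.5, 228 and 203, at 73.6, 63.5 and 51.6, and at 67.5, 52.4 and 56.6. Neither passed in BDL against sham (−0.66 ± 0.34, adjusted p = 0.174, and −1.10 ± 0.44, adjusted p = 0.0887). Without sham 1 both were called, at −1.17 and −1.77. Cyp2c23, an epoxygenase, measured 262, 218 and 301.5 FPKM in sham, 237, 199 and 169 after BDL and 158, 174 and 134 with BDL+LIG, and did not pass in BDL (−0.37 ± 0.17, adjusted p = 0.133). Cyp2c55 ranged from 0.772 to 6.32 FPKM over the 9 libraries and passed no test, and Cyp2c65 was at most 0.0631 FPKM.

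**Figure D4:**
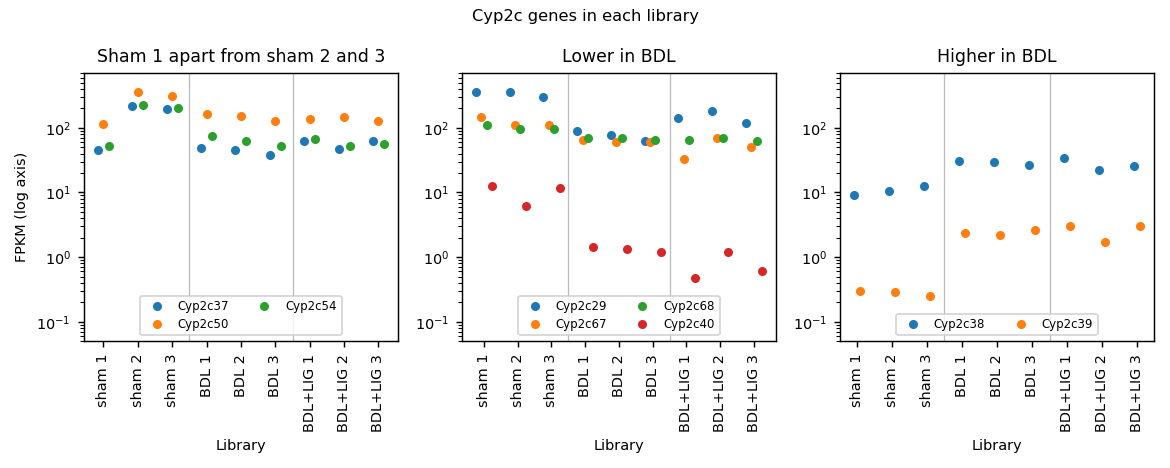
Points give the FPKM of 9 Cyp2c genes in each library on a log axis, in 3 panels, with vertical lines between sham, BDL and BDL+LIG. On the left sham 1 lies near the ligated libraries for Cyp2c37, Cyp2c50 and Cyp2c54, in the middle Cyp2c29, Cyp2c67, Cyp2c68 and Cyp2c40 lie lower in every BDL library than in every sham library, and on the right Cyp2c38 and Cyp2c39 lie higher.

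Cyp2d genes, relatives of the human enzyme for many basic drugs, fell or did not pass. In BDL against sham 3 of 5 tested genes fell, against 6.76% of all tested genes. Cyp2d9, the testosterone 16α-hydroxylase of male mouse liver, fell from 694, 909 and 924 FPKM in sham to 350.5, 335 and 331 in BDL (−1.30 ± 0.14, adjusted p = 8.66e-05). In BDL+LIG it was 414, 396.5 and 429.5 FPKM, above every BDL library and below every sham library. Cyp2d10 fell from 509, 577 and 651 FPKM to 400.1, 361 and 363 (−0.62 ± 0.14, adjusted p = 0.007) and was 409, 335 and 374 with BDL+LIG. Cyp2d40 fell 4.64-fold, from 34.2, 53.8 and 42.1 FPKM to 10.6, 9.23 and 8.21 (−2.08 ± 0.18, adjusted p = 2.29e-05), with 10.1, 11.5 and 8.17 with BDL+LIG. Sham did not overlap the ligated groups for any of the 3. Cyp2d22, the nearest mouse relative of human CYP2D6 in function, averaged 82.8 ± 12.6, 61.7 ± 7.46 and 69.1 ± 11.7 FPKM (SD, n = 3), and Cyp2d26 averaged 368 ± 26.0, 382 ± 9.18 and 331 ± 85.6 FPKM, in sham, BDL and BDL+LIG. Neither passed in BDL (−0.42 ± 0.16, adjusted p = 0.0774, and 0.06 ± 0.17, adjusted p = 0.838), but Cyp2d22 was called with the replicate block (−0.42) and under median-of-ratios scaling (−0.70). Cyp2d11, Cyp2d12 and Cyp2d34 stayed below 1 FPKM in every library.

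Cyp2e1 and Cyp2f2 mark opposite ends of the liver lobule. Cyp2e1, the ethanol and acetaminophen oxidase of the pericentral zone, measured 2226, 3816 and 3398 FPKM in sham, 1875, 1859 and 1804 after BDL, and 1745, 993 and 1728 with BDL+LIG. The 3 groups did not overlap, yet the BDL difference did not pass (−0.73 ± 0.26, adjusted p = 0.0573). It was called without sham 1 (−0.96), without BDL+LIG 2 (−0.73), under quantile normalization (−0.64), with both groups fitted alone (−0.73) and by voom (−0.73). Cyp2f2, a naphthalene oxidase of periportal hepatocytes and of airway club cells, fell from 1057, 938 and 810 FPKM in sham to 282, 240.0 and 208.5 in BDL (−1.94 ± 0.16, adjusted p = 1.86e-05) and was 191, 235 and 245 with BDL+LIG. All ligated libraries lay below all sham libraries. Of 5 airway markers 2 were analysed here: Sftpb was 0 in 8 libraries and 0.0323 FPKM in BDL+LIG 3, and Foxj1 passed the filter through ligated libraries alone, the 2 summing to 0.184 to 0.270 FPKM in sham and 1.10 to 1.75 in BDL. The log2 ratio of Cyp2f2 to Cyp2e1 within a library was −1.08, −2.02 and −2.07 in sham, −2.73, −2.95 and −3.11 after BDL and −3.19, −2.08 and −2.82 with BDL+LIG. The BDL mean was lower by 1.21 without overlap (exact permutation p = 0.1, the smallest possible, adjusted p = 0.3).

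The 3 tested Cyp2j genes, epoxygenases of arachidonic acid, did not pass in BDL against sham. Cyp2j5, the hepatic and renal form, measured 146.5, 111 and 84.4 FPKM in sham, 83.4, 88.7 and 89.2 after BDL, and 72.85, 81.9 and 79.2 with BDL+LIG. Its BDL difference was −0.35 ± 0.17 (adjusted p = 0.159), it was −0.15 without sham 1, and it was called without sham 3 (−0.55) and under median-of-ratios scaling (−0.64). Cyp2j6 stood at 9.12, 6.05 and 4.65 FPKM in sham, 8.61, 9.06 and 9.04 after BDL, and 9.06, 9.91 and 10.15 with BDL+LIG, with a BDL difference of 0.42 ± 0.19 (adjusted p = 0.115) that was called without sham 1 (0.65). Cyp2j9 was 8.01 FPKM in sham 1 and 0.491 to 1.47 FPKM in the other 8 libraries, and Cyp2j8 was at most 0.0761 FPKM.

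The remaining single-gene subfamilies held 1 call in BDL against sham. Cyp2u1, a hydroxylase of long-chain fatty acids, fell from 5.67, 2.67 and 2.84 FPKM in sham to 0.547, 0.801 and 0.813 in BDL (−1.41 ± 0.30, adjusted p = 0.00542) and was 0.514, 2.39 and 1.23 with BDL+LIG. Cyp2r1, the main vitamin D 25-hydroxylase, stood at 7.42, 7.57 and 7.61 FPKM in sham, 5.80, 7.01 and 6.77 after BDL, and 6.91, 6.33 and 6.385 with BDL+LIG. It did not pass (−0.18 ± 0.11, adjusted p = 0.257), although no ligated library reached the lowest sham library. It was called lower in BDL under median-of-ratios scaling (−0.45) and quantile normalization (−0.36), and likewise in BDL+LIG against sham (−0.67 and −0.57). Cyp2g1, an enzyme of the nasal lining, lay between 0.762 and 1.97 FPKM and passed no test. Cyp2s1 was at most 0.454 FPKM, and Cyp2w1 was listed at 0 in 8 libraries and at 0.0356 FPKM in BDL+LIG 1.

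Cyp3a enzymes oxidize steroids, bile acids and a broad range of drugs. Cyp3a11, the main hepatic form and a PXR target, measured 1678, 1263 and 1027 FPKM in sham, 2223, 2036 and 1840 after BDL, and 1363, 2792 and 1621 with BDL+LIG. Each BDL library lay above each sham library, but the difference did not pass (0.64 ± 0.27, adjusted p = 0.101). It was called without sham 1 (0.83) and without BDL+LIG 2 (0.64), the library with the highest value. Cyp3a13, the form also found in the intestine, rose from 35.0, 35.4 and 21.0 FPKM in sham to 55.95, 55.6 and 55.9 in BDL (0.89 ± 0.23, adjusted p = 0.0157) and was 58.0, 33.6 and 54.8 with BDL+LIG. The call was lost without BDL 2 or BDL 3 (0.89 for each) and under median-of-ratios scaling (0.61). Cyp3a25 stood at 489, 176.5 and 139.5 FPKM in sham, 119, 132 and 136 after BDL and 128, 113 and 109 with BDL+LIG. Sham 1 held the highest value. The BDL difference was −0.83 ± 0.36 (adjusted p = 0.115), it was −0.28 and not called without sham 1, and it was called without sham 3 (−1.18) and under median-of-ratios scaling (−1.12). Cyp3a59, 97.5% identical to Cyp3a25 in its coding sequence, followed the same order in sham (21.0, 6.60 and 4.295 FPKM). It passed no test in the deposited scale (BDL −0.52 ± 0.41, adjusted p = 0.379, and 0.08 without sham 1). Under median-of-ratios scaling it was called lower in BDL+LIG than in sham (−1.0). Cyp3a16, Cyp3a44 and Cyp3a57 were at most 0.271 FPKM in any library.

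The BDL+LIG against BDL comparison addresses LIG within ligated mice. Over all tested genes 11.8% were called (9.98% up and 1.79% down). Of the 34 P450 genes 2 rose, Cyp2c29 and Cyp2b10, and 0 fell (limma, with 0 falling at an unadjusted p under 0.05 and 0 by voom, which called 1 rise). Their median log2 difference was −0.07, against 0.18 over all tested genes, and 7 of 34 did not overlap, against 51.2% of all tested genes. Median-of-ratios scaling gave 275 genes up and 355 down against 1012 and 182, and 0 P450 genes in either direction. Quantile normalization gave 480 up and 462 down, rescaling to TPM 1828 and 98, with 1 and 3 P450 genes up.

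Cyp2c29 was 1.96-fold higher in BDL+LIG than in BDL (148.6 ± 33.0 against 75.8 ± 12.5 FPKM, SD, n = 3), a log2 difference of 0.95 ± 0.18 (adjusted p = 0.0146), and all 3 BDL+LIG libraries lay above BDL. The call was lost without BDL 1 (1.06), BDL 2 (0.97) or BDL 3 (0.83) and under median-of-ratios scaling (0.69). The level stayed below sham (−1.21 ± 0.18, adjusted p = 0.000344). Cyp2b10 was 1.14 ± 0.32 higher (adjusted p = 0.0451), with BDL 1 above BDL+LIG 1. Its call was lost without sham 2 (1.14), any BDL library (0.88 to 1.41), BDL+LIG 2 (1.01) or BDL+LIG 3 (0.95), under median-of-ratios scaling (0.94) and quantile normalization (0.89), and also where the value was as large or larger: by voom (2.53), with a pseudocount of 0.1 (2.20), without the filter (1.14) and with the replicate block (1.14). Cyp2d9 lay above every BDL library at 0.29 ± 0.14 (adjusted p = 0.183). It was called without sham 1 (0.29), with both groups fitted alone (0.29) and on the TPM scale (0.44). Cyp2c40, below every BDL library, did not pass (−0.43 ± 0.24, adjusted p = 0.235). BDL+LIG 2 held the highest Cyp3a11 (2792 FPKM), the lowest Cyp2e1 (993 FPKM) and the lowest Cyp2a5 (474 FPKM) of the 3 BDL+LIG libraries.

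BDL+LIG against sham shares its sham libraries with BDL against sham and its BDL+LIG libraries with the preceding comparison, so it is no independent evidence. Here 52.6% of all tested genes were called (43.7% up and 8.92% down). Of the P450 genes 6 rose and 16 fell, with a median of −0.62 against 0.34 over all tested genes, and 21 of 34 did not overlap, against 55.4% of all tested genes. Cyp2b10 and Cyp2c39 among the rises passed the filter through ligated libraries alone, and Cyp2c69 among the falls through sham libraries alone. Without sham 1, 8 rose and 17 fell. Median-of-ratios scaling gave 2149 genes up and 2771 down against 4430 and 905, and 3 P450 genes up and 24 down. Quantile normalization gave 2435 and 2168, and 3 and 16 among the P450 genes.

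Falls from sham passed the test in BDL+LIG for several genes that did not pass in BDL. Cyp2e1 differed from sham by −1.09 ± 0.26 (adjusted p = 0.0056), against −0.73 ± 0.26 after BDL, and Cyp2c23 by −0.74 ± 0.17 (adjusted p = 0.00459), against −0.37 ± 0.17. BDL+LIG against BDL passed for neither: Cyp2e1 gave −0.36 ± 0.26 (adjusted p = 0.366) and Cyp2c23 −0.37 ± 0.17 (adjusted p = 0.163). Cyp2j5 (−0.51 ± 0.17, adjusted p = 0.0307), Cyp3a25 (−0.97 ± 0.36, adjusted p = 0.0442) and Cyp2c54 (−1.19 ± 0.44, adjusted p = 0.0441) also fell, and Cyp2j6 rose (0.53 ± 0.19, adjusted p = 0.0331). Each of these 4 calls was lost under several alternatives. Cyp2c54 lost it without any library but sham 1 (−0.81 to −1.29), Cyp3a25 without any of the 6 ligated libraries (−0.92 to −1.04), Cyp2j5 without sham 1 (−0.31), sham 2 (−0.51) or any BDL+LIG library (−0.46 to −0.54), and Cyp2j6 without sham 2 (0.50), sham 3 (0.34), BDL 2 or 3 (0.53) or any BDL+LIG library (0.50 to 0.58). All 4 lost it with both groups fitted alone and without the filter, at the values given. By scaling, Cyp2j6 lost it under median-of-ratios scaling (0.04) and quantile normalization (0.14), Cyp2j5 under quantile normalization (−0.46) and on the TPM scale (−0.27), Cyp3a25 under quantile normalization (−0.90) and on the TPM scale (−0.73), and Cyp2c54 on the TPM scale (−0.96) and with the replicate block (−1.19). Without sham 1 Cyp3a25 was −0.43 and still called. Cyp3a13 (0.66 ± 0.23, adjusted p = 0.0341) lost its call without sham 3 (0.42), BDL 2 (0.66), BDL+LIG 1 (0.52) or BDL+LIG 3 (0.56), under median-of-ratios scaling (0.12) and quantile normalization (0.49), and with both groups fitted alone or without the filter (0.66 for each). Cyp2b10 lost its call over sham under quantile normalization (0.83), and Cyp2u1 (−1.01 ± 0.30, adjusted p = 0.0154) without BDL+LIG 1 (−0.72). Most gains of a call came under median-of-ratios scaling, where 8 genes were called lower. These were Cyp2a12 (−0.71), Cyp2c37 (−1.67), Cyp2c50 (−1.33), Cyp2d22 (−0.81), Cyp2d26 (−0.74), Cyp2j9 (−1.23), Cyp2r1 (−0.67) and Cyp3a59 (−1.0). Cyp2j9 (−1.37) and Cyp2r1 (−0.57) also gained it under quantile normalization, and Cyp3a11 (0.74) on the TPM scale. Calls were gained without sham 1 by Cyp2a4 (1.67), Cyp2c37 (−1.83), Cyp2c50 (−1.28) and Cyp3a11 (0.69), without BDL+LIG 1 by Cyp2d26 (−0.38) and without sham 2 by Cyp2j9 (−1.38). Cyp2j9 stood at −0.98 ± 0.48 (adjusted p = 0.111) over all libraries and at −0.25 without sham 1, its 1 high library.

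Cyp2f2 (−2.06 ± 0.16, adjusted p = 9.95e-06), Cyp2d40 (−2.01 ± 0.18, adjusted p = 2.04e-05) and Cyp2c40 (−2.63 ± 0.24, adjusted p = 2.04e-05) also fell, and BDL+LIG against BDL gave −0.12, 0.07 and −0.43 for them, none past the threshold. The other called genes were Cyp2c67 (−1.31), Cyp2c68 (−0.62), Cyp2c69 (−1.73), Cyp2d9 (−1.01) and Cyp2d10 (−0.63) among the falls and Cyp2c38 (1.24) and Cyp2c39 (1.47) among the rises.

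P450 genes known to differ between male and female mouse liver were read as a list. Of the 4 listed as higher in males (Cyp2d9, Cyp4a12a, Cyp4a12b and Cyp7b1), 4 fell in BDL against sham, with a median of −2.38 against 0.16 over all tested genes: −3.40 for Cyp7b1, an oxysterol hydroxylase, −3.58 and −1.37 for the fatty acid hydroxylases Cyp4a12a and Cyp4a12b, and −1.30 for Cyp2d9. Of 10 other male-biased liver genes 9 fell (median −5.09), among them Hsd3b5, a steroid dehydrogenase, at 161, 211 and 243 FPKM in sham and at most 0.304 FPKM in any ligated library. In BDL against sham 6.76% of all tested genes fell. Hsd3b5 passed the filter through its sham libraries alone, so it had to differ. The 7 listed as higher in females did not mirror this. Of 3 tested, Cyp17a1 (−0.63 ± 0.40), Cyp2a4 and Cyp2b10, 0 was called in BDL against sham (limma, with 0 at an unadjusted p under 0.05 and 0 by voom). In BDL+LIG against BDL, where 1.79% of all tested genes fell, Cyp4a12a fell further (−1.36 ± 0.25, adjusted p = 0.0145), as did 3 of the 10 other male-biased genes. The other 3 male-listed P450 genes were not called, and Cyp2d9 went the other way. It lay above every BDL library (0.29 ± 0.14, adjusted p = 0.183) and was called higher in some alternatives. Acot3, a female-biased gene that is not a P450, rose (2.14 ± 0.30, adjusted p = 0.00793). Xist was at most 0.0195 FPKM in any library and Ddx3y, on the Y chromosome, 2.42 to 6.77 FPKM, and of 3 tested sex chromosome genes 0 was called in either comparison (limma, 0 at an unadjusted p under 0.05 and 0 by voom). Without sham 1, which held the highest Ddx3y value, 2 of the 3 were called up in BDL against sham and 1 in BDL+LIG against BDL.

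P450 activity needs electrons and haem. Of 18 genes of electron transfer and haem supply 4 rose in BDL against sham and 0 fell (limma, with 2 falling at an unadjusted p under 0.05 and 0 by voom), against a median of 0.02 in the list and 0.16 over all tested genes. In this comparison 22.9% of all tested genes rose and 6.76% fell, so rises were about as frequent in the list as among all genes. Under median-of-ratios scaling 1 of the 18 rose and 4 fell. Por, the oxidoreductase that serves all microsomal P450 enzymes, rose from 97.6, 128 and 87.1 FPKM in sham to 198, 173 and 161 in BDL (0.77 ± 0.16, adjusted p = 0.00426) and was 244, 210 and 239 with BDL+LIG, with no overlap between the 3 groups. Hmox1, which breaks haem down, rose from 17.2, 18.1 and 22.3 FPKM to 68.4, 71.6 and 73.4 (1.84 ± 0.16, adjusted p = 2.11e-05). Its constitutive relative Hmox2 rose by 0.38 ± 0.12 (adjusted p = 0.0301). Alas1, the first enzyme of haem synthesis, measured 51.8, 45.2 and 122 FPKM in sham and 114, 134 and 150 in BDL, a rise that passed although sham 3 overlapped BDL (0.99 ± 0.31, adjusted p = 0.0353). In BDL+LIG against BDL 0 of 18 was called (limma, with 4 higher and 2 lower at an unadjusted p under 0.05 and 0 by voom). On the TPM scale 3 of the 18 rose there, and 3 rose and 1 fell without sham 1.

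Of 25 tested regulators of P450 genes 2 rose and 6 fell in BDL against sham (median −0.13 against 0.16 over all tested genes). There 22.9% of all tested genes rose and 6.76% fell. Ahr rose from 3.50, 1.76 and 1.61 FPKM in sham to 7.56, 9.28 and 10.5 in BDL (1.65 ± 0.20, adjusted p = 0.000234), while its tested target Cyp1a2 fell. Nr1i2, encoding PXR, rose from 31.2, 25.2 and 21.95 FPKM to 38.1, 40.1 and 43.8 (0.63 ± 0.13, adjusted p = 0.00538), with 46.9, 49.5 and 46.6 with BDL+LIG. Nr1i3, encoding CAR, was 65.7, 29.5 and 27.6 FPKM in sham and 31.8, 28.9 and 31.9 after BDL and did not pass (−0.28 ± 0.32, adjusted p = 0.539). Of 5 listed P450 targets of CAR or PXR, Cyp2c29 and Cyp2c37 fell in BDL against sham, and Cyp2b10 and Cyp2c29 rose in BDL+LIG against BDL. The Cyp2c37 call was lost without any library but sham 1, and neither rise was called under median-of-ratios scaling. The other 3 were not called in BDL against sham, among them Cyp3a11, higher in every BDL library (0.64 ± 0.27, adjusted p = 0.101). The 5 summed in BDL to 118.5% of sham, with overlapping libraries. Cebpa, a hepatocyte factor, fell from 163, 166.5 and 267 FPKM to 92.3, 88.2 and 88.7 (−1.10 ± 0.19, adjusted p = 0.00192), Nr1h4, the bile acid receptor FXR, fell by 0.65 (SE 0.11, adjusted p = 0.00174), and Dbp, a clock-controlled activator of P450 genes, fell by 2.80 (SE 0.22, adjusted p = 1.31e-05). Hnf4a, whose motif stands in the Cyp2c promoters above, measured 103 to 128.5 FPKM in sham and 109 to 115 in BDL (−0.06 ± 0.12, adjusted p = 0.772). In BDL+LIG against BDL 4 of 25 rose: Rxra, the partner of CAR and PXR (0.62 ± 0.11, adjusted p = 0.0131), Arnt, the partner of Ahr (0.73 ± 0.16, adjusted p = 0.0224), Stat5b, which carries the growth hormone signal (0.56 ± 0.12, adjusted p = 0.0231), and Ppara, the fatty acid receptor (0.78 ± 0.22, adjusted p = 0.0458). Over all tested genes 9.98% rose in this comparison. All 4 calls were lost without any 1 of the BDL libraries, and under median-of-ratios scaling 1 of the 25 rose.

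P450 genes also differed in how far replicates spread. The median SD of log2(FPKM + 1) over the 34 tested genes was 0.337 in sham, 0.104 after BDL and 0.278 with BDL+LIG, where the median over all tested genes was 0.246, 0.098 and 0.147. Sham 1 stood apart from the other sham libraries, being low for Cyp2c37, Cyp2c50, Cyp2c54 and Cyp2e1 and high for Cyp2a4, Cyp2j9, Cyp3a25 and Cyp3a59. BDL libraries lay close together for most genes, down to 55.6 to 55.9 FPKM for Cyp3a13.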

How the data were processed

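Liver RNA of 9 libraries (3 sham, 3 BDL, 3 BDL+LIG, grouped by their labels) was measured by RNA-seq. Total RNA was taken up in TRIzol and libraries were made with the VAHTS Universal V6 kit, per the labels' protocols. The submitters' processing notes name fastp, HISAT2 2.1.0, DESeq2 and GRCm39. For the annotation and the counter, the sources used here name none. The authors deposited 1 table of FPKM per gene and library. From the low values, whole fragments were recovered for 19449 of 19449 genes above 0 in at least 2 libraries (tolerance 0.02 of a fragment), 34815965 to 40780517 per library. Among the tests only voom used them. They also gave the library depths and fragment numbers above and the basis of the simulated data.

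The 10142 genes that reached 1 FPKM in 3 or more libraries were tested with limma 3.58.1 (R 4.3.3). It was fitted to log2(FPKM + 1) of the 3 groups together with a mean-variance trend, and p-values were adjusted over all of them. The procedure was tested on simulated data. Sums and ratios were compared by exact two-sided permutation tests. Values in every library are given for genes called in any comparison with a group mean of at least 5 FPKM and for a fixed set (Cyp1a1, Cyp1a2, Cyp1b1, Cyp2a4, Cyp2a5, Cyp2b9, Cyp2b10, Cyp2d9, Cyp2e1, Cyp2f2, Cyp2r1, Cyp2u1, Cyp3a11 and Cyp3a13). Of each gene list at most 4 genes with the smallest p are named, beside Por, Nr1i2, Nr1i3, Ahr, Hnf4a, Cebpa, Alas1, Hmox1 and Alb. Other genes were named after their values were seen. The P450 genes and all lists were chosen with earlier results of these data known. Alternatives were other pseudocounts, filters, scalings and models, and each library left out in turn. Promoters are from RefSeq (GRCm38.p6) and coding sequences from GENCODE M21 (GRCm38), builds other than the authors', used for sequence only. Some results on single marker genes are not reported here.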

Additional observations from a re-analysis of the deposited data

How the results depend on the processing

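Of 1809 log2 values of single P450 genes under the alternatives, 1626 kept direction and side of the threshold, 87 lost the call, 39 gained it and 57 changed sign. In no case of a changed sign was either value past the threshold. Calls held in every alternative in which the gene was tested for 13 of 16 genes in BDL against sham, 0 of 2 in BDL+LIG against BDL and 14 of 22 in BDL+LIG against sham. The cause of the changes below was not tested. In BDL against sham, 2 P450 genes were up under median-of-ratios scaling and 3 to 6 with 1 library left out, 11 to 15 were down, and over all genes 1838 were called with a mean of at least 5 FPKM, which tests fewer genes, and 1894 to 4668 with 1 library left out (4668 without sham 1). For LIG within ligated mice (BDL+LIG against BDL), 1 P450 gene was up with a pseudocount of 0.1, without the filter, with a mean of at least 5 FPKM, under quantile normalization and by voom, 0 under median-of-ratios scaling, and 0 to 3 with 1 library left out. There 623 genes in all were called without the filter, 575 with a mean of at least 5 FPKM, 630 under median-of-ratios scaling, 1926 on the TPM scale and 3433 with both groups fitted alone. With 1 library left out the count was 0 to 3144: 0 without BDL 2, 40 without BDL 1, 54 without BDL 3 and 3144 without sham 1. In BDL+LIG against sham, 3 P450 genes were up under median-of-ratios scaling and quantile normalization, 4 to 8 were up and 13 to 17 down with 1 library left out, and 2765 genes in all were called with a mean of at least 5 FPKM and 4505 to 6922 with 1 library left out. By voom on recovered fragments, an alternative added after seeing the data, 2954, 1366 and 5347 genes were called in the 3 comparisons, against 3008, 1194 and 5335. Genes below about 1 FPKM rest on few fragments, and their log2 differences are limited by depth.

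Same-numbered libraries correlated at −0.13 to 0.28 in their deviations from the group means, and differently numbered libraries at −0.30 to 0.14. The highest values were those of sham 3 with BDL+LIG 3 (0.28) and sham 1 with BDL+LIG 1 (0.25). With 3 libraries per group these correlations cannot settle whether replicate numbers pair the libraries. With the replicate number as a block, 4 P450 genes were up and 13 down in BDL against sham, 1 up in BDL+LIG against BDL, where Cyp2b10 lost its call, and 6 up and 15 down in BDL+LIG against sham, where Cyp2c54 lost its call. The gain in BDL against sham was Cyp2d22. Over all genes the block gave 2782, 742 and 5125 calls.

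Summed subfamily levels, as log2 ratios, moved with the scaling and, for the low Cyp2b genes, with single libraries. The Cyp2b ratio ran from −0.79 to 0.80 for BDL against sham (0.28 over all libraries) and from 1.58 to 3.16 for BDL+LIG against BDL (2.09). Median-of-ratios scaling gave in BDL against sham 0.23 for Cyp2a, −1.35 for Cyp2c, −1.03 for Cyp2d, −1.10 for Cyp2e and −2.22 for Cyp2f. It gave for BDL+LIG against BDL −0.46 for Cyp2a, −0.40 for Cyp2f and for Cyp2j, and turned the sign for Cyp2c (−0.26) and Cyp2d (−0.23). For BDL+LIG against sham it gave −2.05 for Cyp1a, −1.61 for Cyp2c, −1.25 for Cyp2d, −1.67 for Cyp2e, −2.62 for Cyp2f and −1.02 for Cyp2j, and turned Cyp2a (−0.24) and Cyp3a (−0.18). On the TPM scale BDL+LIG against sham gave 0.57 for Cyp2a, −0.76 for Cyp2c, −0.44 for Cyp2d and −1.84 for Cyp2f, and BDL+LIG against BDL gave 0.19 for Cyp2d and turned Cyp2j (0.02).

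The sign turned in BDL against sham under median-of-ratios scaling for Cyp2a12 at −0.16 and Cyp2d26 at −0.24; under quantile normalization for Cyp2b10 at −0.06; by voom for Cyp2b10 at −0.07. With 1 library left out of that comparison, Cyp2a4 ran from −0.94 to 0.43, Cyp2b10 ran from −0.19 to 0.34, Cyp2d26 ran from 0.00 to 0.09 and Cyp3a59 ran from −0.94 to 0.08. The sign turned in BDL+LIG against BDL under median-of-ratios scaling for Cyp2c39 at −0.13, Cyp2d22 at −0.11, Cyp2d40 at −0.17, Cyp2j6 at −0.13 and Cyp2r1 at −0.22; under quantile normalization for Cyp2c39 at −0.19, Cyp2d10 at 0.08, Cyp2d40 at −0.10, Cyp2f2 at 0.01, Cyp2g1 at −0.03, Cyp2j6 at −0.07, Cyp2r1 at −0.21 and Cyp3a11 at 0.21; on the TPM scale for Cyp2c38 at 0.03, Cyp2c50 at 0.04, Cyp2c54 at 0.06, Cyp2c68 at 0.10, Cyp2d10 at 0.14, Cyp2f2 at 0.03, Cyp3a11 at 0.01, Cyp3a25 at 0.00 and Cyp3a59 at 0.13. With 1 library left out of that comparison, Cyp2c38 ran from −0.27 to 0.02, Cyp2c39 ran from −0.05 to 0.24, Cyp2c54 ran from −0.22 to 0.03, Cyp2c69 ran from −0.30 to 0.04, Cyp2d10 ran from −0.08 to 0.06, Cyp2d40 ran from −0.03 to 0.19, Cyp2g1 ran from −0.01 to 0.37, Cyp2r1 ran from −0.07 to 0.05, Cyp3a11 ran from −0.45 to 0.07, Cyp3a13 ran from −0.37 to 0.01 and Cyp3a59 ran from −0.13 to 0.13. The sign turned in BDL+LIG against sham under median-of-ratios scaling for Cyp2c55 at −0.16 and Cyp3a11 at −0.06; under quantile normalization for Cyp2c55 at −0.25; on the TPM scale for Cyp2a12 at 0.09, Cyp2d26 at 0.06, Cyp2g1 at 0.01 and Cyp2r1 at 0.03. With 1 library left out of that comparison, Cyp2c55 ran from −0.35 to 0.67, Cyp2g1 ran from −0.32 to 0.05 and Cyp3a59 ran from −0.95 to 0.08.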
